A study of Homo sapiens with 30 samples.

Results

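Human bronchial epithelial cells were compared 2 h after exposure to smoke from tobacco shisha on an electronic heater (ET, "electronic and tobacco" in the labels) with internal control wells (IC) taken at the same time. The comparison uses 6 of the 30 libraries of the study, 3 wells in each group. They were chosen by their labelled treatment and time and not by any measured value. All wells held BEAS-2B, an established, virus-immortalised line derived from normal human bronchial epithelium. ET wells were exposed for 30 min on a rocker and lysed in Trizol 2 h later. The exposure was the strongest that released no LDH, an enzyme that leaks from damaged cells, at 24 h. What the IC wells received, and whether the 3 wells of a group were separate cultures, is not given in the sources used here, so p-values measure the spread between wells and part of that spread may be technical. The other groups used below are wells 2 h after tobacco shisha on charcoal (CT, 3 wells) and ET and IC wells at 24 h (3 wells each).

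Smoke, growth factors and physical stress all act on airway epithelium within minutes. Kinases of the MAP kinase family then switch on immediate early genes, which need no new protein to be transcribed: the AP-1 subunits FOS and JUN, the EGR zinc finger factors and the NR4A orphan nuclear receptors. Their mRNAs are short-lived, and the products include the phosphatases and RNA-binding proteins that end the response. Unfolded protein acts through a separate route, in which heat shock factor 1 binds heat shock elements and raises chaperones such as HSPA1A.

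Promoters of the genes that carry these results are shown because their known control elements can be read in them. The sequences are from RefSeq (GRCh38), the 250 bases before the gene's start, 5′ to 3′ on the gene's strand. Capitals mark the CArG boxes of EGR1 (the serum response factor site, searched by name on both strands), the CRE of DUSP1 (cAMP response element, TGACGTCA) and the heat shock element cores of the 3 chaperones (HSE, GAANNTTC or TTCNNGAA). The windows lie at chr5:138465229-138465478 (EGR1, plus strand), chr5:172771196-172771445 (DUSP1, minus strand), chr6:31815293-31815542 (HSPA1A, plus strand), chr1:161524290-161524539 (HSPA6, plus strand) and chr12:119178681-119178930 (HSPB8, plus strand).
EGR1: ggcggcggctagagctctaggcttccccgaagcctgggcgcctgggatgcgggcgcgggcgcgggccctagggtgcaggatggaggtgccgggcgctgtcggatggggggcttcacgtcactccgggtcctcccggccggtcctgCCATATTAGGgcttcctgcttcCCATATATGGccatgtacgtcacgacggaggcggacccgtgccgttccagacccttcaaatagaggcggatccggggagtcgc
DUSP1: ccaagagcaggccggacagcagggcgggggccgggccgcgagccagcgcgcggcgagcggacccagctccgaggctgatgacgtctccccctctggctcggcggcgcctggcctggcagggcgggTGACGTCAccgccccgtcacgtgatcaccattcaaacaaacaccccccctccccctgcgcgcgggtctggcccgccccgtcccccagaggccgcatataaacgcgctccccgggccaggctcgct
HSPA1A: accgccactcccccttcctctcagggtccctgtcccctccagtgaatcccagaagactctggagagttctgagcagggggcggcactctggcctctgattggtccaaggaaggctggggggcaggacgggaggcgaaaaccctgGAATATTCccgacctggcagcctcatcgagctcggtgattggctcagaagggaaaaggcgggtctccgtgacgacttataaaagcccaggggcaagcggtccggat
HSPA6: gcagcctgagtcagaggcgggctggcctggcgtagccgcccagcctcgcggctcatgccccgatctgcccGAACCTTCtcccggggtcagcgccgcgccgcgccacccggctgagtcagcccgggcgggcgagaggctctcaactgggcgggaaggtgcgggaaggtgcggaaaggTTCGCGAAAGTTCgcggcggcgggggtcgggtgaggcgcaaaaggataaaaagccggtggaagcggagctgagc
HSPB8: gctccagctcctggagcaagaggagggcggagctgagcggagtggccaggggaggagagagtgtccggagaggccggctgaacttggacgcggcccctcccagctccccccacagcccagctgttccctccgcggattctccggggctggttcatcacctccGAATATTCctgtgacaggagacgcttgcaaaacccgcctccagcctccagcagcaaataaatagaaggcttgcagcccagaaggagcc
EGR1 holds 2 CArG boxes, from -105 to -96 and from -83 to -74 relative to the start. It was the only one of the 10 matched promoters among the 12 largest rises to hold one in the window. That window runs from 250 bases before the start to 50 after it. A CArG box was in 1.29% of 27305 promoters and in 0.957% of those of tested genes. DUSP1 was likewise the only one with a full CRE, at -125 to -118, against 1.98% of all promoters and 3.45% of those of tested genes. Of the 7 heat shock genes that rose, 6 matched the table and 4 held a core, namely HSPA1A, HSPA1B, HSPA6 and HSPB8, against 13.7% of all promoters and 9.69% of those of tested genes. HSPA6 held 3 cores, of which 2 overlap. Cores were not limited to chaperones: 1 of the 10 matched promoters of the largest rises held one, HES1 at -67 to -60. A TATA box (TATAAA, either strand) was in 4 of the 10 matched largest rises, in 12% of all promoters and in 5.2% of those of tested genes. None of the 9 matched promoters among the 12 largest falls held a CArG box, a CRE, a heat shock core or a TATA box. These are in 0.957%, 3.45%, 9.69% and 5.2% of promoters of tested genes, so 9 promoters are too few for a contrast with the rises. RICTOR, 1 of the falls, held an EGR site (GCGTGGGCG), as do 1.45% of promoters of tested genes. The shorter TGACG was in 6 of 10 rises, 3 of 9 falls and 35% of promoters of tested genes. A match is a run of letters and not evidence of binding.

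Expression was read as FPKM, fragment counts scaled by transcript length and library size, as the authors deposited it. Tests used limma on log2(FPKM + 1) over 8531 genes, with genes called below 0.05 after Benjamini-Hochberg adjustment. Read depth was estimated from the lowest FPKM values and came to 24.8, 31.2 and 31.0 M reads in ET wells and 33.8, 43.6 and 51.6 M reads in IC wells, so that the control group was the deeper one. Correlation between wells was 0.988 to 0.991 within ET, 0.991 to 0.992 within IC and 0.970 to 0.974 between them. Of 10 epithelial markers in the files 5 were tested, KRT8, KRT18, KRT19, CLDN1 and TJP1, while the basal keratins KRT5 and KRT14 and the junction genes CDH1 and EPCAM were near 0, CDH1 at 0.0823 FPKM in ET wells and 0.126 FPKM in IC wells. All 10 markers together summed 953 to 1170 FPKM in ET wells and 927 to 1000 in IC wells. The fibroblast and mesenchymal list was as abundant, with 5 of 10 markers tested: VIM averaged 737 FPKM in ET wells and 664 FPKM in IC wells, THY1 138 FPKM in ET wells and 134 FPKM in IC wells, and COL1A1, the only called one of all these markers, 134 FPKM in ET wells and 167 FPKM in IC wells. None of the 7 ciliated and 6 red blood cell markers was tested, and 7 of 11 immune markers were listed at 0 in all 6 wells, while CD14 averaged 11.8 FPKM in ET wells and 12.1 FPKM in IC wells and CD68 8.96 FPKM in ET wells and 8.25 FPKM in IC wells. The part of other cell types in the results was not tested. In bulk RNA, fewer cells of a type and less RNA per cell cannot be told apart.

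At 2 h the ET wells were marked by very large rises in a small set of regulators and by small falls in many long mRNAs. Of the 8531 genes, 2903 were called (34%), 791 of them higher (9.27%) and 2112 lower (24.8%). By 2-fold or more, 130 were higher (1.52%) and 12 lower (0.141%). All 3 ET wells lay above all 3 IC wells in 1381 genes (16.2%) and below them in 2800 (32.8%). The 15 largest rises were FOS, EGR1, NR4A1, EGR2, EGR3, ATF3, DUSP1, HES1, SGK1, DUSP5, IER2, JUNB, KLF4, ZFP36 and RHOB. With the libraries rescaled by median of ratios, 1581 genes were higher and 1589 lower, so the split between directions depends on the scaling. The median change over all genes was -0.04 as deposited and 0.02 rescaled, on the log2 scale.

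FOS, the AP-1 subunit at chr14:75278828-75282230, showed the largest change. It stood at 193, 212 and 274 FPKM in ET wells and at 0.795, 0.618 and 0.514 FPKM in IC wells. The groups were far apart and no well lay between them, a ratio of means of 353 and a log2 change of 7.10 ± 0.29 (SE, adjusted p = 6.64e-15). EGR1, a zinc finger factor at chr5:138465479-138469303, stood at 330, 370 and 322 FPKM in ET wells and at 1.68, 1.98 and 1.57 FPKM in IC wells. The 3 exposed wells were close to each other, and the log2 change was 6.96 ± 0.22 (adjusted p = 5.02e-17). NR4A1, an orphan nuclear receptor at chr12:52022832-52059503, had 114, 95.8 and 48.4 FPKM in ET wells and 0.784, 0.842 and 0.726 FPKM in IC wells. Here the third ET well was the lowest, but still far above every control well (log2 change 5.52 ± 0.24, adjusted p = 2.89e-14). EGR2 had 30.9, 34.2 and 32.7 FPKM in ET wells against 0.0189, 0.0293 and 0.0186 FPKM in IC wells, where those values stand for an estimated 1.9, 3.8 and 2.8 reads. EGR3 had 32.5, 34.3 and 20.3 FPKM in ET wells against 0.0264, 0.0256 and 0.026 FPKM in IC wells. With controls this near 0 no ratio is given for EGR2 and EGR3, and their log2 changes of 5.04 and 4.84 depend on the pseudocount of 1.

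**Figure D1:**
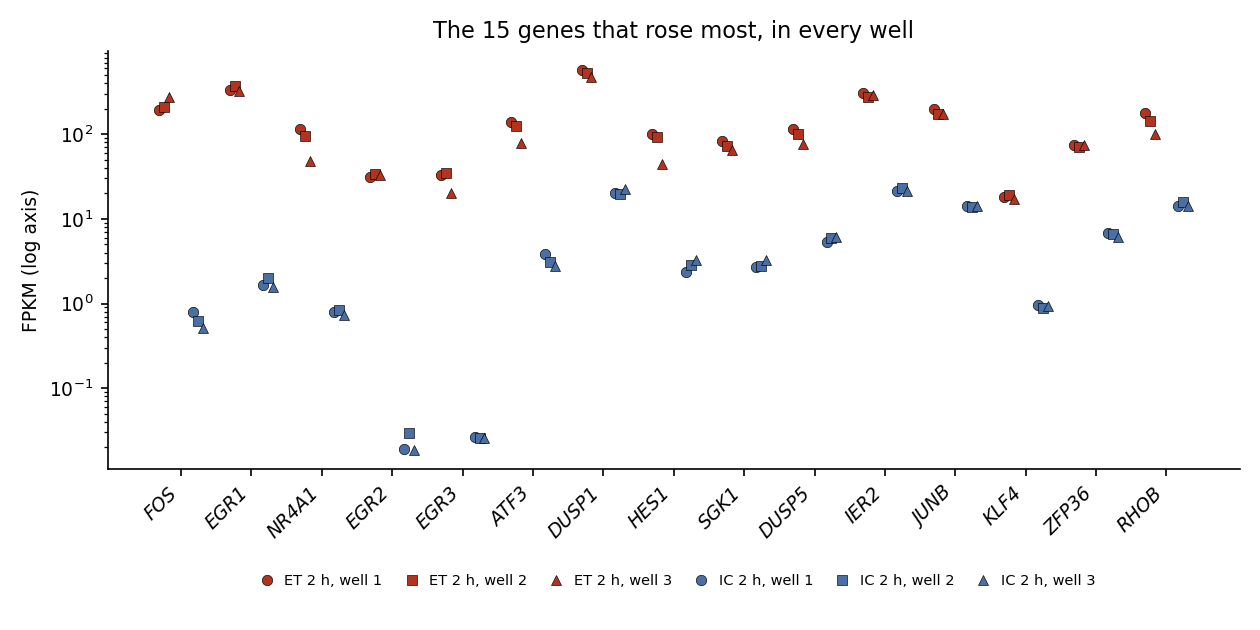
FPKM on a log axis for the 15 genes that rose most, one symbol per well, with ET wells at 2 h to the left of IC wells at 2 h within each gene. In every gene the 3 ET wells lie above the 3 IC wells; in FOS they are at 193, 212 and 274 FPKM, and in NR4A1 the third ET well is the lowest at 48.4 FPKM.

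The immediate early transcription factors rose almost as a whole: 21 of 22 tested were higher and none lower, with a median log2 change of 2.51 beside -0.04 over all genes. Shares over all genes tested were 9.27% higher and 24.8% lower. The exception was KLF6, at 19.3, 14.8 and 11.4 FPKM in ET wells and 13.3, 16.1 and 3.12 FPKM in IC wells, which overlapped and did not pass the test (adjusted p = 0.428). ATF3, a stress-induced partner of AP-1, had 138, 124 and 78.8 FPKM in ET wells and 3.85, 3.06 and 2.80 FPKM in IC wells. JUNB, another AP-1 subunit, averaged 181 ± 14.4 FPKM in ET wells and 14.1 ± 0.247 FPKM in IC wells (SD, n = 3 each). IER2, an immediate early nuclear protein, averaged 290 ± 15 FPKM in ET wells and 21.9 ± 1.03 FPKM in IC wells. Wells of both genes were tightly grouped on each side. JUN itself averaged 231 FPKM in ET wells and 41.8 FPKM in IC wells, and KLF4, a Krüppel-like zinc finger factor, 18.1 FPKM in ET wells and 0.924 FPKM in IC wells. NR4A2 was at 6.99, 5.81 and 3.32 FPKM in ET wells, against 0 in 2 IC wells and 0.0607 FPKM in the third. EGR4 averaged 3.26 FPKM in ET wells and was listed at 0 in IC wells. Of the 9 tested genes known as cAMP and CREB targets, 7 rose, but NR4A1, NR4A2, NR4A3, DUSP1 and FOS are among them, so this count largely repeats the list above.

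The rises included mRNAs of known brakes on MAP kinase and EGFR signalling and of mRNA decay factors. Signalling itself was not measured. DUSP1, a phosphatase that inactivates MAP kinases in the nucleus (chr5:172768096-172771195), had 576, 529 and 474 FPKM in ET wells and 20.1, 19.7 and 22.3 FPKM in IC wells, a log2 change of 4.6 ± 0.18 (adjusted p = 2.83e-15). DUSP5, a nuclear phosphatase for ERK, had 114, 101 and 76.0 FPKM in ET wells and 5.37, 5.88 and 6.11 FPKM in IC wells. DUSP6, its cytoplasmic counterpart, averaged 11.3 FPKM in ET wells and 1.11 FPKM in IC wells. In all, 10 of 16 tested brakes of MAP kinase and EGFR signalling rose and 2 fell, with a median log2 change of 0.80 beside -0.04 over all genes. For this and the decay factor list, the shares over all genes tested were 9.27% higher and 24.8% lower. SPRY4, an inhibitor of receptor tyrosine kinase signalling, averaged 14.9 FPKM in ET wells and 2.53 FPKM in IC wells. DUSP7 and DUSP14 did not pass the test, with log2 changes of 0.11 and 0.49 (adjusted p = 0.241 and 0.579), although DUSP7 passed with length adjusted (adjusted p = 0.0415) and DUSP14 with only the ET and IC wells fitted (adjusted p = 0.0127). Of 8 tested mRNA decay and antiproliferative factors, 5 rose and 1 fell. ZFP36, which binds AU-rich mRNAs and directs their decay, was even between wells, at 75.4, 70.8 and 73.8 FPKM in ET wells and 6.78, 6.62 and 6.16 FPKM in IC wells (log2 change 3.31 ± 0.06, adjusted p = 1.71e-21). TOB1, which recruits the deadenylase complex, averaged 32.1 FPKM in ET wells and 13.9 FPKM in IC wells.

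Secreted signals also rose, by smaller amounts. Of 9 tested EGFR ligands and growth factors 6 were higher and none lower, with a median log2 change of 0.75. HBEGF, a ligand of EGFR, had 106, 98.9 and 54.8 FPKM in ET wells and 18.8, 18.2 and 18.6 FPKM in IC wells (log2 change 2.11 ± 0.22, adjusted p = 1.29e-07). VEGFA, an angiogenic factor, had 11.2, 11.2 and 6.85 FPKM in ET wells and 2.87, 3.89 and 3.42 FPKM in IC wells. In both genes the third ET well was the lowest and the groups did not overlap. FGF2 had 14.4, 12.9 and 9.70 FPKM in ET wells and 14.5, 14.3 and 14.2 FPKM in IC wells and was not called (adjusted p = 0.0781). Of 13 tested cytokines and NF-kB targets 7 rose and 2 fell. Beside both lists, 9.27% of all tested genes rose and 24.8% fell. IL6 had 26.4, 22.8 and 19.9 FPKM in ET wells and 7.71, 7.35 and 7.27 FPKM in IC wells (log2 change 1.5 ± 0.13, adjusted p = 3.17e-09). CXCL8, a neutrophil attractant, had 113, 104 and 86.5 FPKM in ET wells and 53.1, 54.2 and 56.8 FPKM in IC wells. Neither overlapped its controls. IL1B averaged 30.3 FPKM in ET wells and 17.9 FPKM in IC wells.

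Developmental regulators were among the stronger responders. Of 11 tested genes of the Notch pathway and developmental transcription factors 9 rose and 1 fell, with a median log2 change of 0.76. HES1, the repressor that Notch induces, had 100.4, 93.3 and 44.4 FPKM in ET wells and 2.35, 2.82 and 3.27 FPKM in IC wells (log2 change 4.32 ± 0.25, adjusted p = 5.42e-12). DLX2, a homeobox factor, had 26.1, 20.6 and 9.60 FPKM in ET wells and 1.3, 1.49 and 1.5 FPKM in IC wells. SNAI1, a repressor of epithelial junction genes, had 10.1, 10.7 and 11.3 FPKM in ET wells and 1.03, 1.28 and 1.47 FPKM in IC wells. The first pair of genes was lowest in the third ET well and SNAI1 was not. SOX9 averaged 16.9 FPKM in ET wells and 3.26 FPKM in IC wells. Of 10 tested genes of the TGF-beta and BMP response 6 rose and 3 fell, but 3 rose and 1 fell with length adjusted and likewise without the third ET well. Over all genes tested 9.27% rose and 24.8% fell. ID2, an inhibitor of helix-loop-helix factors, averaged 41.7 FPKM in ET wells and 15.8 FPKM in IC wells, and SKI, a co-repressor of SMADs, 11.1 FPKM in ET wells and 17.7 FPKM in IC wells. Of 9 tested YAP and SRF cytoskeletal genes 4 rose and 1 fell. CYR61, a matricellular protein, had 818, 703 and 543 FPKM in ET wells and 173, 178 and 180 FPKM in IC wells. ANKRD1, a muscle ankyrin repeat protein and YAP target, varied widely between wells, with 60.6, 44.1 and 16.6 FPKM in ET wells and 4.91, 5.72 and 5.96 FPKM in IC wells (log2 change 2.49 ± 0.42, adjusted p = 6.90e-05).

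Heat shock chaperones rose in part. Of 23 tested, 7 were higher and none lower, with a median log2 change of 0.20. Over all genes tested 9.27% rose and 24.8% fell. With only the ET and IC wells fitted, 12 chaperones were higher, beside 610 of all 8531 genes. HSPA1A, the inducible HSP70, had 41.0, 37.1 and 28.6 FPKM in ET wells and 14.5, 14.1 and 13.8 FPKM in IC wells (log2 change 1.26 ± 0.27, adjusted p = 0.000816). DNAJB1, an HSP40 that hands substrates to HSP70, had 160, 164 and 132 FPKM in ET wells and 55.1, 55.5 and 59.2 FPKM in IC wells (log2 change 1.41 ± 0.20, adjusted p = 1.00e-05). HSPA6, an HSP70 that is nearly silent without stress, had 4.82, 5.20 and 2.78 FPKM in ET wells and 0.0628, 0.0538 and 0.128 FPKM in IC wells (adjusted p = 0.00115). In all 3 genes every ET well was above every control well. HSPB8, a small heat shock protein, averaged 2.63 FPKM in ET wells and 0.825 FPKM in IC wells, and DNAJB4 averaged 16.5 FPKM in ET wells and 9.52 FPKM in IC wells. HSPA1B, with 45.8, 41.2 and 31.8 FPKM in ET wells and 15.3, 14.7 and 14.6 FPKM in IC wells, is nearly identical in sequence to HSPA1A, as HSPA7 is to HSPA6, so reads may be split between the members of each pair. The call of HSPA7 (adjusted p = 0.0318) was lost when any single one of the 6 libraries was left out. The abundant HSPA8 averaged 645 ± 34.9 FPKM in ET wells and 548 ± 12.7 FPKM in IC wells (SD, n = 3 each). HSP90AA1 averaged 184 ± 43.3 FPKM in ET wells and 219.5 ± 40.3 FPKM in IC wells. Neither passed the test (adjusted p = 0.239 and 0.298), whose spread was pooled over all 10 groups. Those groups include the ET wells of 24 h, where the SD of HSPA1A was 130 FPKM.

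Of 16 tested genes of the integrated stress response, which limits translation through eIF2, 3 rose and 1 fell, and with the other scaling 5 rose. PPP1R15A, the phosphatase subunit that reverses eIF2 phosphorylation, had 220, 215 and 131 FPKM in ET wells and 29.1, 28.9 and 27.9 FPKM in IC wells (log2 change 2.64 ± 0.24, adjusted p = 1.32e-08). CHAC1, a glutathione-degrading enzyme, averaged 5.74 ± 2.38 FPKM in ET wells and 1.07 ± 0.20 FPKM in IC wells (SD, n = 3 each). Of 22 NRF2 targets tested 4 rose and 2 fell, with a median log2 change of 0.07 beside -0.04 over all genes. Shares over all genes tested were 9.27% higher and 24.8% lower. NQO1, a quinone reductase widely used as a marker of NRF2, had 71.5, 63.8 and 74.9 FPKM in ET wells and 64.3, 64.2 and 69.9 FPKM in IC wells, and the groups overlapped (adjusted p = 0.435). SRXN1, which repairs oxidised peroxiredoxins, averaged 48.8 FPKM in ET wells and 41.8 FPKM in IC wells and was called.

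Targets of the aryl hydrocarbon receptor, the sensor of combustion products, were few, in a comparison where 9.27% of all tested genes rose. TIPARP, its feedback inhibitor, had 51.1, 53.3 and 34.1 FPKM in ET wells and 19.1, 19.3 and 19.0 FPKM in IC wells (log2 change 1.20 ± 0.11, adjusted p = 1.50e-08), and NEDD9 was the other one of 4 tested that rose. CYP1B1, a hydroxylase of polycyclic hydrocarbons, had 15.8, 16.9 and 10.6 FPKM in ET wells and 12.1, 12.5 and 11 FPKM in IC wells (adjusted p = 0.408), and CYP1A1 was below the filter, at 0.502 FPKM in ET wells and 0.418 FPKM in IC wells. SLC30A1, a zinc exporter under the metal-sensing factor MTF1, had 42.9, 38.2 and 23.3 FPKM in ET wells and 15, 15.5 and 15 FPKM in IC wells. The metallothionein MT2A averaged 451 FPKM in ET wells and 397 FPKM in IC wells and did not pass the test (adjusted p = 0.193). Nicotine acts on acetylcholine receptors. Of 15 nicotinic receptor genes in the files only CHRNB1 passed the filter, at 3.85, 4.04 and 4.32 FPKM in ET wells and 4.41, 4.4 and 4.2 FPKM in IC wells (adjusted p = 0.468).

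TXNIP, the inhibitor of thioredoxin, fell, with 11.9, 11.2 and 13.9 FPKM in ET wells and 20.4, 21.6 and 18.7 FPKM in IC wells (log2 change -0.67 ± 0.16, adjusted p = 0.0015). Of 21 tested hypoxia genes 6 rose and 1 fell. For this and the next lists, the shares over all genes tested were 9.27% higher and 24.8% lower. ADM, the vasodilator adrenomedullin, had 281, 257 and 204 FPKM in ET wells and 51.8, 52.1 and 58.0 FPKM in IC wells, while the glycolytic LDHA averaged 290 FPKM in ET wells and 239 FPKM in IC wells and was not called (adjusted p = 0.301). None of the 11 tested cholesterol genes was called. Of 14 tested p53 targets 4 rose and 4 fell: CDKN1A, the inhibitor of cyclin-dependent kinases, averaged 74.6 FPKM in ET wells and 41.4 FPKM in IC wells, and SESN1, a stress-induced inhibitor of mTORC1 signalling, fell, at 1.07 FPKM in ET wells and 1.86 FPKM in IC wells. Among 12 tested apoptosis regulators PMAIP1, which promotes apoptosis, had 41.2, 37.9 and 27.9 FPKM in ET wells and 9.21, 9.19 and 8.13 FPKM in IC wells. XIAP, an inhibitor of caspases, had 2.65, 2.47 and 1.81 FPKM in ET wells and 4.97, 4.48 and 4.65 FPKM in IC wells. PMAIP1 was the only member of that list to rise and XIAP was 1 of 4 that fell, by a log2 change of -0.79, and -0.48 with length adjusted.

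**Figure D2:**
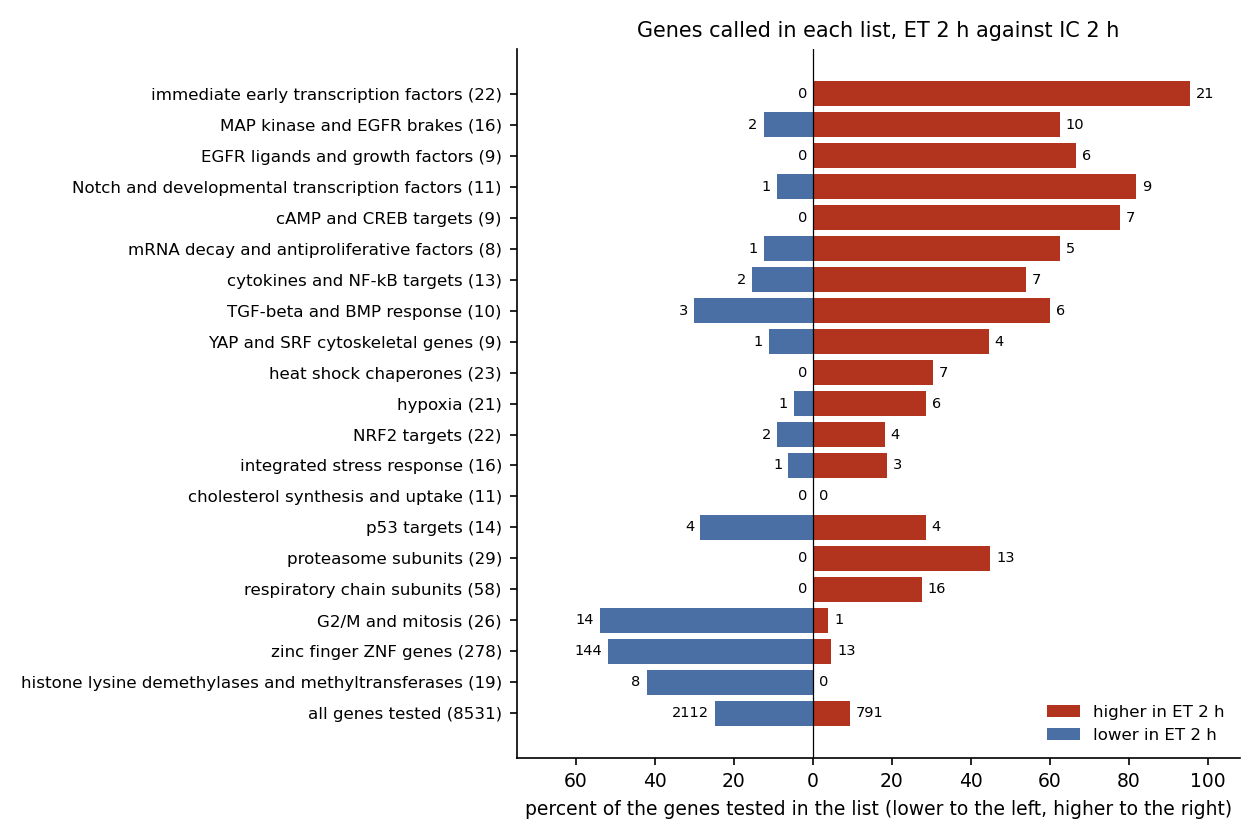
Percent of the tested genes of each list that were called higher (right) or lower (left) in ET than in IC wells at 2 h, with the number called at the end of each bar and the number tested in brackets. Immediate early factors stand at 21 higher of 22 and mitosis genes at 14 lower of 26; the bottom bar gives all 8531 genes.

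Falls were mostly small, with a median log2 change of -0.32 among the 2112 genes that fell, and they went with transcript length. In 4 classes of transcript length of equal size, from the shortest to the longest, 7.12%, 14.6%, 25.3% and 53.4% of genes fell. Rises ran the other way, at 15.1%, 11%, 7.28% and 3.64%. The median transcript was 4342 bases among falls, 1830 among rises and 2277 among genes not called. The difference between the longest and shortest classes, as a log2 deviation from the mean of all libraries, was -0.155, -0.12 and -0.325 in ET wells and 0.1, 0.0806 and 0.0874 in IC wells. With this tilt fitted and removed from each library, a step added after seeing the data, 1001 genes of 8133 with a known length were higher and 1062 lower. Of rises with a known length 77.3% of 754 kept their call, and of falls 49.6% of 2040. By 2-fold or more, all 120 rises and 7 of 10 falls kept it. The cause of the tilt was not tested.

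**Figure D3:**
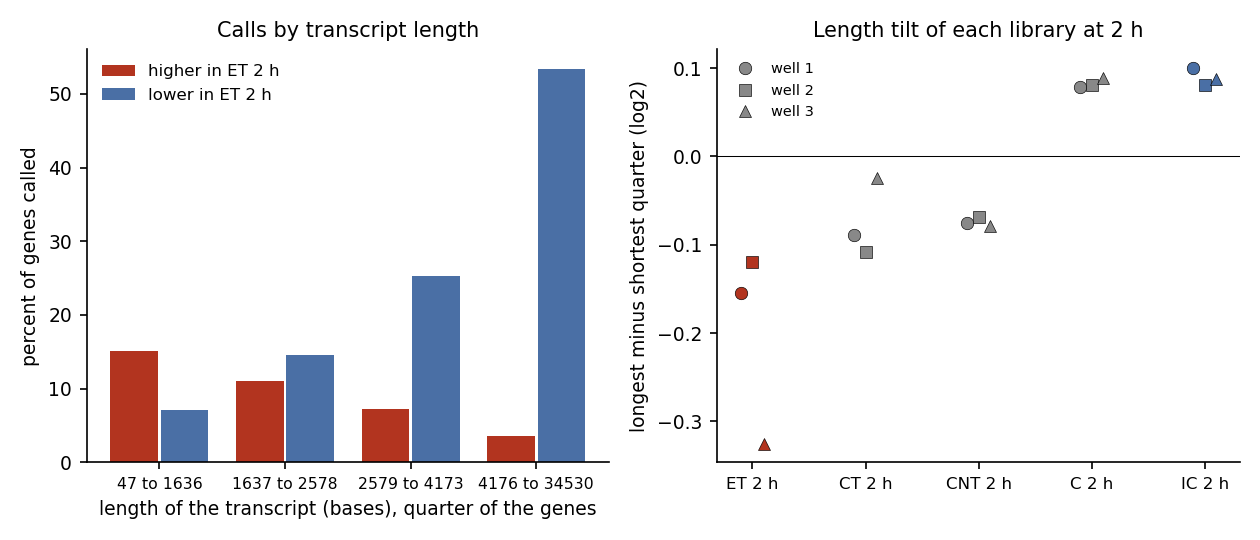
Left, percent of genes called higher or lower in ET than in IC wells at 2 h, in 4 classes of transcript length in bases. Right, for each library at 2 h, the log2 level of the longest class minus the shortest, relative to all libraries: the third ET well is lowest at -0.325 and the IC wells lie at 0.0806 to 0.1.

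Falls of 2-fold or more need care, because 7 of the 12 were listed at 0 in at least 1 well. A value of 0 in these files can be a failed estimate, since RPS18, a ribosomal protein gene that every cell uses, is also listed at 0. PTPRK, a receptor tyrosine phosphatase, was listed at 0 in all 3 ET wells and at 5.99, 6.20 and 6.50 FPKM in IC wells, but it was listed at 0 in 12 of the 30 libraries, the 3 IC wells of 24 h included. GLIS2, a zinc finger factor, was likewise listed at 0 in every ET well and at 4.26, 3.96 and 3.95 FPKM in IC wells. RICTOR, the defining subunit of the mTORC2 kinase complex, had no 0 in any library. It stood at 2.92, 3.21 and 2.66 FPKM in ET wells and 7.04, 6.84 and 7.03 FPKM in IC wells, a log2 change of -1.02 ± 0.07 (adjusted p = 1.17e-10), and -0.74 with length adjusted. Just short of 2-fold were ZNF627 and CCNF, with log2 changes of -0.995 and -0.987. CCNF, the F-box protein that marks substrates for decay in G2, had 6.36, 6.78 and 7.68 FPKM in ET wells and 14.9, 14.8 and 14.3 FPKM in IC wells. ZNF627, a zinc finger gene, had 0.974, 0.845 and 1.28 FPKM in ET wells and 2.96, 3.11 and 3.04 FPKM in IC wells. In these 3 genes the groups were well separated.

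Among the lists examined, mitotic genes and zinc finger genes had the largest shares of falls. Over all genes tested 24.8% fell and 9.27% rose, and with length adjusted 1062 of 8133 fell and 1001 rose. Of 26 tested G2/M and mitosis genes 14 fell and 1 rose, with a median log2 change of -0.18, and with length adjusted 9 of 25 fell and none rose. ASPM, a spindle pole protein, had 12.1, 13.4 and 10.2 FPKM in ET wells and 20.6, 19.7 and 20 FPKM in IC wells. KIF14, a mitotic kinesin whose log2 change was -0.69 and -0.43 with length adjusted, averaged 6.17 FPKM in ET wells and 10.4 FPKM in IC wells, TTK, the spindle checkpoint kinase, 20 FPKM in ET wells and 28.5 FPKM in IC wells, and CCNA2, cyclin A, 37.1 FPKM in ET wells and 51.4 FPKM in IC wells. All 4 were called, but CCNB1, cyclin B, was not, at 173 FPKM in ET wells and 185 FPKM in IC wells (adjusted p = 0.281). Of 14 tested S phase genes 1 rose and 1 fell. The one that rose, E2F1, lost its call in 4 of the 6 fits that left out a library. The one that fell, CCNE1 or cyclin E, had 1.89, 2.12 and 2.14 FPKM in ET wells and 4.46, 4 and 4.35 FPKM in IC wells, while the replication clamp PCNA averaged 295 FPKM in ET wells and 299 FPKM in IC wells (adjusted p = 0.85). Of 278 tested ZNF genes 144 fell and 13 rose, with a median log2 change of -0.25, and with length adjusted 87 of 263 fell and 16 rose. ZNF703 went the other way, at 22.7, 20.3 and 19.4 FPKM in ET wells and 9.38, 9.43 and 10.5 FPKM in IC wells. Of 19 tested histone lysine methyltransferases and demethylases 8 fell and none rose, and with length adjusted 6 fell and 1 rose. KMT2A, which methylates histone H3, had 4.68, 5.47 and 3.52 FPKM in ET wells and 9.71, 9.11 and 9.24 FPKM in IC wells. Its log2 change was -0.91, and -0.48 with length adjusted. CLOCK, a core factor of the circadian clock, averaged 2.75 FPKM in ET wells and 4.56 FPKM in IC wells.

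Some subunits of the housekeeping complexes rose slightly, in a comparison where 9.27% of all tested genes rose. Among proteasome subunits 13 of 29 rose and none fell, and among respiratory chain subunits 16 of 58 rose and none fell, with median log2 changes of 0.14 and 0.13. Cytosolic ribosomal proteins had 7 of 32 higher and none lower, and mitochondrial ribosomal proteins 14 of 56 higher and 1 lower. PSMD4, the ubiquitin receptor of the proteasome, had 135, 137 and 140 FPKM in ET wells and 122, 121 and 119 FPKM in IC wells. RPL38, a ribosomal protein, averaged 747 FPKM in ET wells and 670 FPKM in IC wells. These mRNAs are short, and their medians were 0.08 for both proteasome and respiratory chain with length adjusted. In that fit 8 of 28 and 11 of 55 were higher, beside 1001 of 8133 over all genes. With median-of-ratios scaling 20 proteasome and 39 respiratory chain genes rose and none fell, beside 1581 higher of all 8531 genes. Without the third ET well 3 of 29 proteasome, 5 of 58 respiratory chain, 3 of 32 cytosolic and 2 of 56 mitochondrial ribosomal genes rose. In that fit 582 of all 8531 genes rose, so these counts were near or below the share over all genes.

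The third ET well differed from the other two. It was the lowest of the 3 in 104 of the 130 rises of 2-fold or more (80%), against 37.7% of all genes. The median log2 excess of those 130 genes over the control mean was 1.71, 1.54 and 1.22 in ET wells 1, 2 and 3. FOS, at 274 FPKM, was an exception, as were SNAI1 and BTG2, an antiproliferative factor with 11.7, 13.4 and 14.3 FPKM in ET wells and 4.11, 4.54 and 3.77 FPKM in IC wells. That well also had the strongest length tilt, and its part in the results was measured by leaving it out: 127 of the 130 rises kept their call, 517 of the 791 genes that rose and 1698 of the 2112 that fell. The spread between wells was larger in ET, with a median SD of 0.0986 log2 units and 0.0507 in IC.

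ET was then set against CT, the same kind of shisha heated by charcoal, at 2 h. Of 8531 genes 1991 differed (23.3%), 1084 higher in ET (12.7%) and 907 lower (10.6%), with 48 higher by 2-fold or more (0.563%) and 13 lower (0.152%). The count rests on the spread pooled over all groups and on single wells. It was 569, 323 higher and 246 lower, with only these 2 groups fitted. Without the third CT well it was 1237, 642 higher and 595 lower. Without the third ET well it was 1370, 751 higher and 619 lower, with 6 lower by 2-fold or more. With median-of-ratios scaling 806 were higher and 1159 lower. Doses were set by LDH release, so the heat source and the amount of smoke reaching the cells cannot be told apart. The 3 genes most above CT were FOS, EGR1 and EGR2. FOS averaged 226 ± 42.5 FPKM in ET wells and 4.89 ± 1.37 FPKM in CT wells (SD, n = 3 each; log2 difference 5.28, 95% interval 4.69 to 5.88, adjusted p = 1.19e-11). EGR1 averaged 341 ± 25.5 FPKM in ET wells and 22.8 ± 5.99 FPKM in CT wells, and EGR2 32.6 ± 1.68 FPKM in ET wells and 1.98 ± 0.775 FPKM in CT wells. Both exceeded CT by more than any spread between wells. IER2 averaged 290 FPKM in ET wells and 68.9 FPKM in CT wells, and ZFP36 73.3 FPKM in ET wells and 19 FPKM in CT wells. HSPA1A averaged 35.6 FPKM in ET wells and 14.1 FPKM in CT wells (log2 difference 1.26, adjusted p = 0.0016).

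The immediate early list was not uniformly higher in ET: 13 of 22 were higher than in CT, 1 was lower and 8 did not pass the test. For NR4A1, at 86.2 FPKM in ET wells and 58.4 FPKM in CT wells, the log2 difference was 0.47 with a 95% interval of -0.03 to 0.97 (adjusted p = 0.167). FOSL2, an AP-1 subunit whose rise over IC lost its call in 3 of the 6 fits that left out a library, was the one lower in ET than in CT, at 41.3 FPKM in ET wells and 73.1 FPKM in CT wells (adjusted p = 0.0109). Growth factors ran the other way. Of the 9 tested EGFR ligands and growth factors 7 were lower in ET than in CT and none higher, with a median log2 difference of -0.74 beside 0.04 over all genes. For each list here, the shares over all genes were 12.7% higher in ET than in CT and 10.6% lower. The length tilt was -0.0887, -0.108 and -0.0239 in CT wells and -0.155, -0.12 and -0.325 in ET wells. FGF2, FGF5 and BDNF transcripts have 6775, 4555 and 4532 bases. FGF2, VEGFA and HBEGF were lowest in the third ET well. For ET against CT, this list was not counted with length adjusted or without that well. FGF2 averaged 12.3 ± 2.41 FPKM in ET wells and 22.4 ± 0.68 FPKM in CT wells (log2 difference -0.83, 95% interval -1.03 to -0.63, adjusted p = 1.95e-06). FGF5, another fibroblast growth factor, averaged 1.45 FPKM in ET wells and 4.2 FPKM in CT wells, and BDNF, a neurotrophin, 12 FPKM in ET wells and 19.9 FPKM in CT wells. HBEGF, at 86.7 FPKM in ET wells and 106 FPKM in CT wells, did not pass the test, and the interval of its log2 difference was -0.80 to 0.12 (adjusted p = 0.291). NAB2, a co-repressor of the EGR factors, was 1 of the 13 genes lower by 2-fold or more, at 27.9 FPKM in ET wells and 73.3 FPKM in CT wells (adjusted p = 4.59e-07). CYR61 averaged 688 FPKM in ET wells and 702 FPKM in CT wells, with an interval of -0.33 to 0.24. Of 26 G2/M and mitosis genes 7 were higher in ET than in CT and none lower. Over all genes with length adjusted, 840 of 8133 were higher in ET than in CT and 1003 lower, so that split depends on the adjustment.

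**Figure D4:**
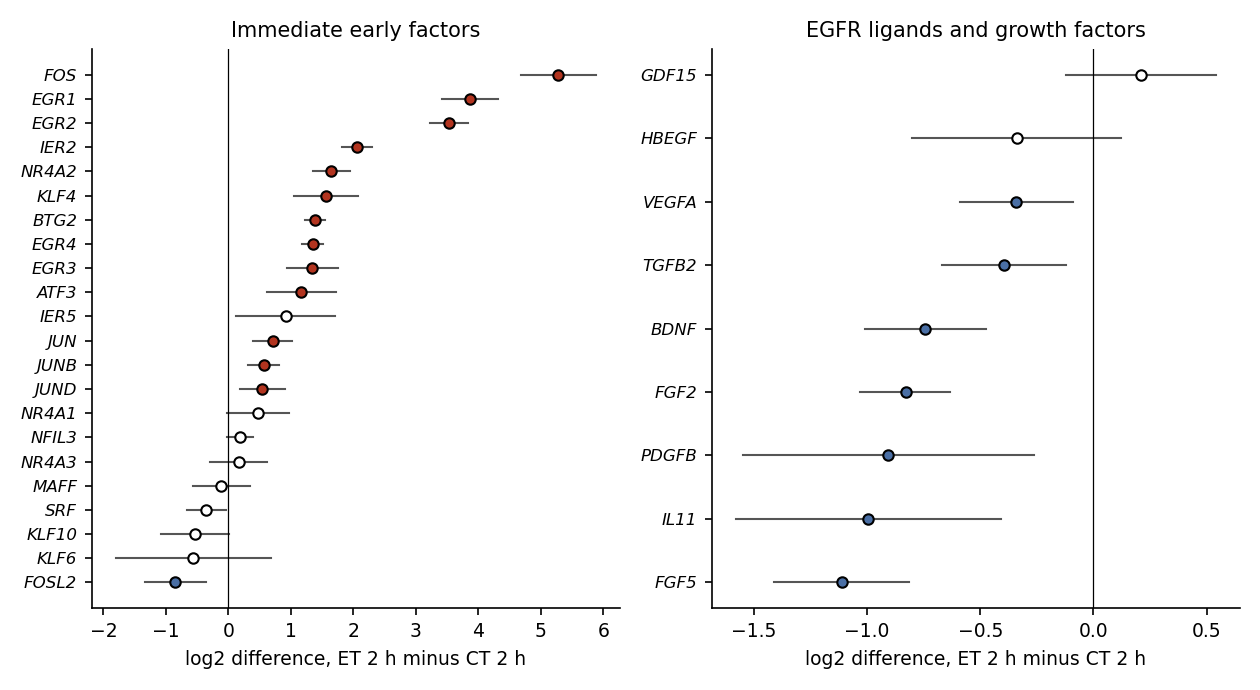
Log2 difference between ET and CT wells at 2 h for 22 immediate early factors (left) and 9 EGFR ligands and growth factors (right), with 95% intervals as lines; red circles were higher in ET, blue circles lower, and open circles did not pass the test. FOS is at 5.28 and FGF5 at -1.11.

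At 24 h the ET wells were set against the IC wells of 24 h, and the difference between the effects at the 2 times was tested in the same fit. The effect differed at 4918 genes (57.6%), with the 24 h effect the higher one in 2970 (34.8%) and the lower one in 1948 (22.8%). Of the 130 genes higher by 2-fold or more at 2 h, 85 were also higher at 24 h (65.4%) and 8 were lower; their median log2 change was 0.57 at 24 h and 1.5 at 2 h, and the effect was smaller at 24 h in 98 and larger in 6. ET against IC at 24 h called 5440 genes (63.8%), 2922 higher (34.3%) and 2518 lower (29.5%). Genes higher at both times numbered 446, which is 15.3% of the 24 h rises and 56.4% of the 2 h rises. EGR1 averaged 5.53 ± 2.75 FPKM in ET wells and 2.65 ± 0.82 FPKM in IC wells at 24 h (SD, n = 3 each), and its log2 change was 0.79 at 24 h and 6.96 at 2 h. FOS changed by 1.58 at 24 h and 7.10 at 2 h. Of 23 tested heat shock chaperones the effect was higher at 24 h in 20 and lower in none. HSPA1A averaged 219 ± 130 FPKM in ET wells and 14.2 ± 0.954 FPKM in IC wells at 24 h, a log2 change of 3.63 at 24 h and 1.26 at 2 h (adjusted p of the difference 1.60e-05). HSPA6 averaged 120.9 ± 115.7 FPKM in ET wells and 0.0526 ± 0.0490 FPKM in IC wells at 24 h, with wells far apart. For DNAJB1 the log2 change was 1.49 at 24 h and 1.41 at 2 h, and the test of the difference did not pass (adjusted p = 0.826), nor did that of DNAJB4 (adjusted p = 0.113).

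**Figure D5:**
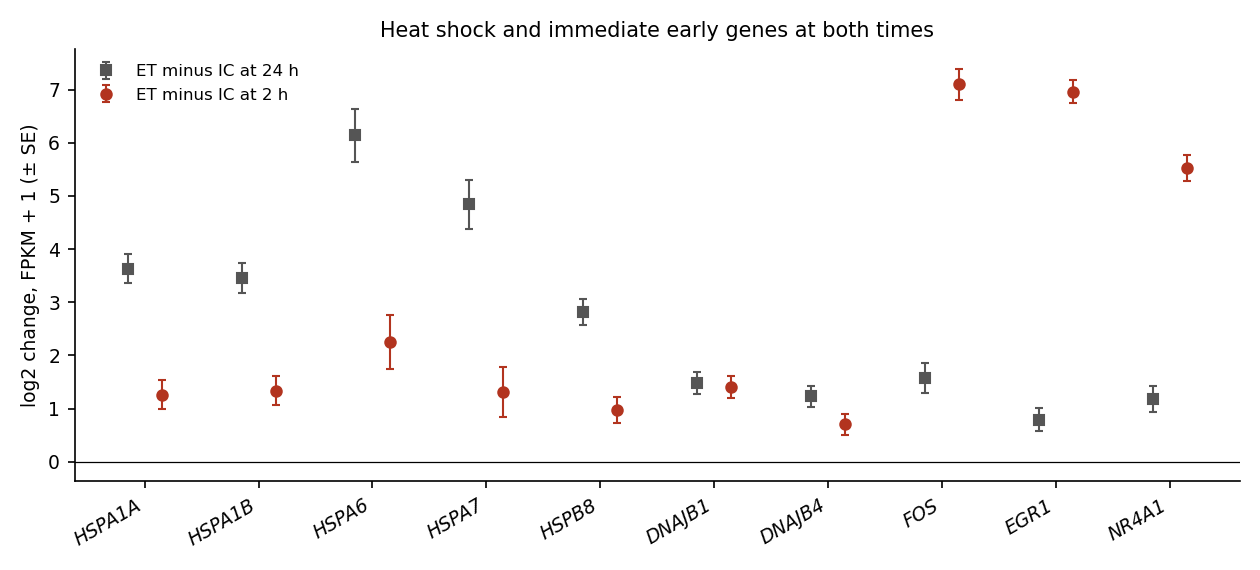
Log2 change of FPKM + 1 in ET relative to IC wells, with the SE of the fit as bars, at 24 h (grey squares, left) and 2 h (red circles, right) for 7 heat shock genes and 3 immediate early genes. HSPA6 is at 6.14 at 24 h and 2.25 at 2 h; EGR1 is at 0.79 at 24 h and 6.96 at 2 h.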

How the data were processed

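Per the labels' protocols, TruSeq RNA libraries were made (input 1 ug), and per the series' design text they were sequenced as 50 bp single reads. The submitters' processing notes name HISAT2 2.1.0, StringTie 1.3.4d and the hg38 build; no source used here gives the strand setting. The deposited per-library columns name no unit; they are taken as the authors' FPKM because the deposited matrix of the whole series holds the same values under that name. FPKM is scaled to library size and transcript length, so each value is relative to the rest of its library. Where a gene name had several transcripts, the one with the highest mean over 30 libraries was kept. Genes with 1 FPKM or more in at least 3 of 30 libraries were tested with limma 3.58.1 (trend; R 4.3.3) on log2(FPKM + 1), with 1 mean per group over all 30 libraries, so that the spread was pooled over 10 groups (20 residual degrees of freedom), and adjusted by Benjamini-Hochberg. The script was tested on simulated data. Depth was estimated from FPKM values worth up to about 5 reads, as the read number at which FPKM times transcript length comes nearest to whole reads: at the depth chosen, 37.2% of 7148 low values were whole reads within 0.05, against a median of 8.21% over the depths scanned. No interval of counts is given, since the reads were estimated. Transcript lengths came from GENCODE and gene positions from RefSeq, both matched by RefSeq accession. Alternatives were another scaling, pseudocount and filter, the compared groups alone, a replicate block, the sum over transcripts, each library left out and, added after seeing the data, the length adjustment. The genes and lists were chosen with earlier results of these data known. Named genes were the 15 largest rises and falls without overlap between groups, up to 4 called members (by p) and 2 abundant uncalled members per list, called heat shock chaperones and a few set markers. JUN, FOSL2, EGR4 and other genes given beyond these lie outside this rule and were named after their values were seen. GAPDH, ACTB, HMOX1, DDIT3 and MYC were not analysed here. Tables and figures were made in Python 3.11.15 with matplotlib 3.10.9 and pandas 2.3.3.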

Additional observations from a re-analysis of the deposited data

Results flagged for a closer look

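The exposure effect was tested for a difference between the 2 times, 24 h minus 2 h on the log2 scale, and 4918 genes passed. Among the genes with the largest changes at 2 h the difference was -5.53 for FOS, -6.17 for EGR1, -4.34 for NR4A1, -4.69 for EGR2 and -4.15 for EGR3, all smaller at 24 h. It was 4.71 for PTPRK (adjusted p = 0.00259) and 2.08 for ZBTB9 (adjusted p = 0.0151), both of which are listed at 0 in several libraries. It was positive, with a larger rise at 24 h, for HSPA1A (2.37), HSPA1B (2.11), HSPA6 (3.89), HSPA7 (3.53) and HSPB8 (1.84).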

How the results depend on the processing

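ET against IC called between 2364 and 2889 genes when single libraries were left out (581 to 843 higher, 1782 to 2046 lower; 106 to 155 higher and 10 to 18 lower by 2-fold or more). Falls of 2-fold or more numbered 82 with a pseudocount of 0.1, 4 with a minimum mean of 5 FPKM and 5 with length adjusted, against 12. The stricter filter tests fewer genes, and it called 1700, with 1093 lower. Another scaling gave 1581 higher, and the length adjustment 1062 lower. ET against CT gave 77 higher and 28 lower by 2-fold or more with the smaller pseudocount, 25 higher with the stricter filter, and 569 calls (323 higher, 246 lower) with only the 2 groups. Leaving out libraries gave 1237 to 1991 calls (642 to 1071 higher, 595 to 920 lower; 41 to 56 and 6 to 22 by 2-fold or more). The difference between times gave 479 higher and 510 lower by 2-fold or more with the smaller pseudocount, and 3187 calls, 1845 higher and 106 by 2-fold or more, with the stricter filter. Leaving out libraries gave 4638 to 5020 calls (2790 to 2937 higher, 1781 to 2085 lower; 174 to 255 and 266 to 331 by 2-fold or more). Signs reversed for uncalled PCNA (0.0571, scaling), FGF2 (0.0357) and FN1 (0.138) and for called EDEM1 (0.0157), VCL (0.047) and SF3B3 (0.128) with length adjusted, for AHR (-0.0602 to 0.328) and LFNG (-0.628 to 0.0356) as single libraries were left out, and for the difference of DNAJB1 (-0.0219 scaled, and -0.296 to 0.505 as single libraries were left out). The cause was not tested. With a replicate block 2896 genes were called for ET against IC (781 higher, 2115 lower) and none of the 15 counts over all genes moved by over 1.5 times. Of 72 counts over lists 4 did, with 0 interferon genes, 2 of the TXNIP family and 1 small nucleolar RNA host gene higher and 0 mitochondrial ribosomal genes lower. Same-numbered wells did not deviate together (correlations 0.0492, -0.00331 and 0.0494). These values cannot tell whether the wells were handled as pairs, which is not given in the sources used here. Of 150 named genes called, 128 kept the call whichever library was left out. Counts over lists were less stable: of 72, those that moved by over 1.5 times numbered 22 without the third ET well, 21 with the other scaling, 26 with length adjusted and 22 with the stricter filter. Controls of EGR2 and EGR3 rest on a few reads, and ET wells were read less deeply than IC wells.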

Other observations

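SLC25A25, a mitochondrial carrier, had 35.6, 34.3 and 25.6 FPKM in ET wells and 11.3, 11.6 and 11.5 FPKM in IC wells. PARS2, the mitochondrial prolyl enzyme, had 1.27, 1.43 and 1.33 FPKM in ET wells and 2.88, 2.70 and 2.64 FPKM in IC wells. Of 38 tested splicing factors 9 rose and 5 fell (18 and 3 with the other scaling), and SRSF3 was among those that rose, with 125, 128 and 117 FPKM in ET wells and 99.9, 102 and 101 FPKM in IC wells. Of 10 tested interferon response genes IFI6 rose and IFIH1 fell. Their calls were lost in 5 and 3 of the 6 fits that left out a library. Beside both lists, 9.27% of all tested genes rose and 24.8% fell.

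The transcript listed under the small RNA name SNORD14D lies inside HSPA8 and had 15.5, 19.9 and 14.3 FPKM in ET wells and 1.93, 2.21 and 2.76 FPKM in IC wells. HSPA8 itself did not pass the test with the spread pooled over all groups. Reads of SNORD14D and HSPA8 cannot be told apart where the 2 overlap. FLOT1, a lipid raft protein, was listed at 0 in all 3 CT wells and in 8 of the 30 libraries, with 3.77, 3.15 and 4.11 FPKM in ET wells.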
